A study of Mus musculus with 2 samples.

Results

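Potassium channel genes were followed across the cell classes of Nes-GFP+ cells sorted from adult mouse brain and lung. All gene symbols starting with Kcn that had at least 20 UMIs (unique molecular identifiers, which mark single captured RNA molecules) over both libraries were taken, which gave 72 of the 90 Kcn symbols with a UMI and 72 of 18002 genes that reached 20 UMIs. The 72 genes held 20067 UMIs in brain and 21955 UMIs in lung. The gene nearest the threshold from above was Kcnf1 with 20 UMIs and from below Kcnv2 with 18 UMIs, and the 18 genes left out held 141 UMIs together.

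The cells came from transgenic mice of about 6 weeks that express GFP under Nestin regulatory elements, and both tissues share this reporter. The strain label is C57BL/6, while the methods state that transgenic animals were crossed in-house to wild-type stock, either CD1 or CD1 mixed with C3H. GFP+ cells of brain and of lung were sorted and loaded on a droplet 3′ platform, with 1 library and a single biological replicate per tissue. The reporting notes of the study describe brain controls as coming, for much of the work, from the animals that gave the other organs, without saying whether this held for these libraries. There are therefore no replicates, no test was possible, and tissue and library cannot be told apart.

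Potassium channels let potassium leave or enter the cell and so set the resting potential and end action potentials. Inward rectifiers and two-pore channels are open near rest, voltage-gated (Kv) channels open on depolarisation, and calcium-activated channels open when calcium rises. In the brain, glial inward rectifiers take up the potassium that neurons release, and in vessels ATP-sensitive potassium channels of mural cells lower vascular tone when they open.

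After removal of barcodes with 200 or fewer genes, 4000 or more genes, or at least 40% mitochondrial UMIs, 4151 of 4640 brain barcodes and 5608 of 5981 lung barcodes were kept, with a median of 4209 and 5585 UMIs per cell. A cell was placed in a class when at least 3 markers of that class were detected and led the next class by 2, and no Kcn gene served as a marker. This placed 3713 brain cells (89.4%) in 12 classes and 3779 lung cells (67.4%) in 8 classes. The 1829 lung cells left out were mostly ties between mural and fibroblast lists. The 430 cells placed by the lung myofibroblast list are not named by it, because their 10 leading genes included the club cell genes Scgb1a1 and Scgb3a2, with 1 marker of the epithelial list among the 10 and none of their own. The OPC-like, cycling, early and late neuroblast-like and lung endothelial-like classes also had none of their gate markers among their 10 leading genes. None of another class's gate markers stood there either. The neuroblast-like classes share 1 gate list, and Syt1, a marker of the list that splits off late cells, led the late class. The libraries shared 15 barcodes, 11 of them kept, and leaving these out moved none of the 5 main CPM ratios (Kcnj8, Kcnj10 and the Kv pore subunits) beyond its counting interval. Levels are counts per 1000000 UMIs of the class (CPM), and all intervals are exact 95% intervals that cover counting error only.

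Of the 72 genes, 32 encode pore-forming Kv subunits, 10 Kv accessory subunits, 9 inward rectifiers, 9 two-pore channels, 8 channels of the Kcnma, Kcnn, Kcnt and Kcnu genes, 3 accessory subunits of the large-conductance (BK) channel and 1 a Kv regulator, Kcnrg. Calcium or sodium activates the Kcnma, Kcnn and Kcnt channels, while Kcnu1 is gated by pH and voltage. Classes differed in which group was highest. Inward rectifiers summed to 1897 CPM in brain pericyte-like cells, two-pore channels to 504 CPM in lung pericyte-like cells, and Kv pore subunits to 1140 CPM in mature oligodendrocyte-like and 1038 CPM in lung neural-like cells. In each of these classes 1 gene held most UMIs of all members. Kcnj8 held 84.8% of all potassium channel UMIs of brain pericyte-like cells, Kcnk3 53.9% in lung pericyte-like cells, Kcna1 63.1% in mature oligodendrocyte-like cells and 54.7% in lung neural-like cells. Brain endothelial-like cells had the lowest sum over all members, 94.5 CPM.

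**Figure D1:**
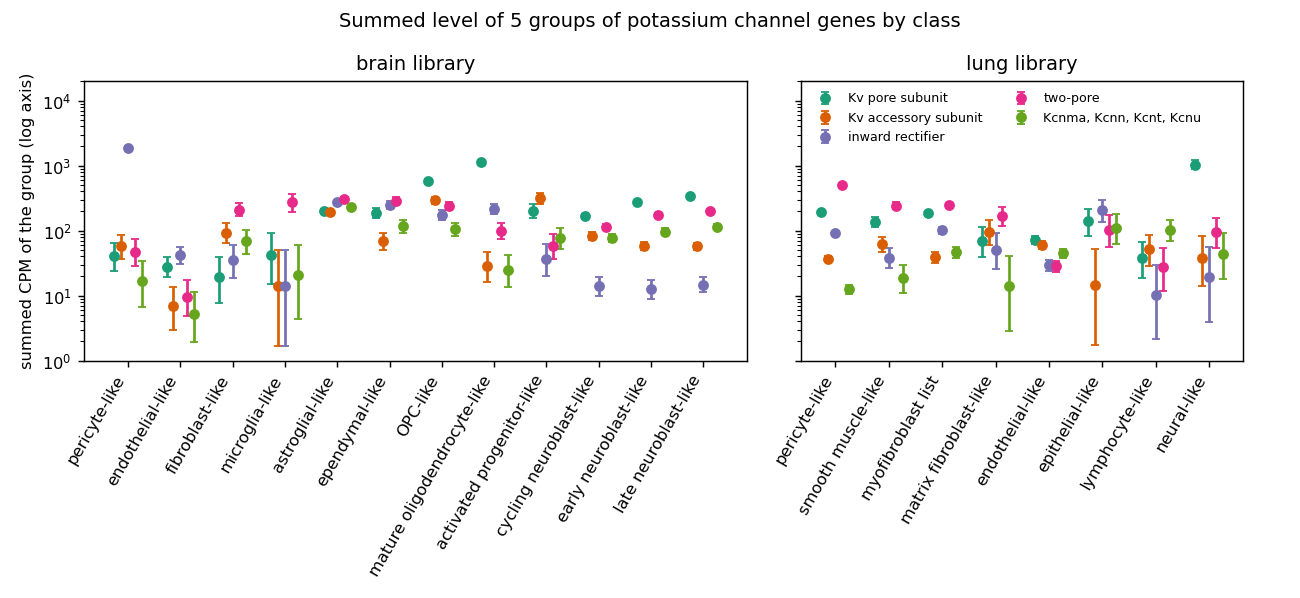
Summed CPM (log axis) of 5 groups of potassium channel genes in each class of the brain and lung libraries, with exact Poisson 95% intervals as bars. Inward rectifiers stand highest in brain pericyte-like cells (1897 CPM) and Kv pore subunits in mature oligodendrocyte-like (1140 CPM) and lung neural-like (1038 CPM) cells.

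The sequences just before the annotated starts of 4 genes are given because these genes mark the patterns described next. Kcnj8 and Abcc9 are neighbours on chromosome 6 that were both high in brain pericyte-like cells, Kcnj10 was high in glia and Kcnc1 in neuroblast-like cells. Each run is the 250 bases before the start in RefSeq (GRCm38.p6), written 5′ to 3′ on the gene's strand: Kcnj8 at chr6:142571615-142571864 (minus), Abcc9 at chr6:142702275-142702524 (minus), Kcnj10 at chr1:172340960-172341209 (plus) and Kcnc1 at chr7:46396218-46396467 (plus). Capitals mark matches on either strand to the TATA box motif TATAAA, the CAAT box motif CCAAT, the GC box motif GGGCGG or the E-box motif CANNTG, and no matches overlap.
Kcnj8: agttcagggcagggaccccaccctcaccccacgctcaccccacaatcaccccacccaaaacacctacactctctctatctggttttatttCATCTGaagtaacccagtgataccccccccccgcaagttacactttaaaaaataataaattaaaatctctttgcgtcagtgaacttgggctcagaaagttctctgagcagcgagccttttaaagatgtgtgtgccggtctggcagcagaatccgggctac
Abcc9: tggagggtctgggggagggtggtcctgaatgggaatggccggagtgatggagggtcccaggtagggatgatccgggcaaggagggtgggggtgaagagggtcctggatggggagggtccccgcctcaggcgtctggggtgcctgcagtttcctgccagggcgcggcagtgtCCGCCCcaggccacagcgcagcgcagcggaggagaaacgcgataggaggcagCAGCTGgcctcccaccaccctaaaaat
Kcnj10: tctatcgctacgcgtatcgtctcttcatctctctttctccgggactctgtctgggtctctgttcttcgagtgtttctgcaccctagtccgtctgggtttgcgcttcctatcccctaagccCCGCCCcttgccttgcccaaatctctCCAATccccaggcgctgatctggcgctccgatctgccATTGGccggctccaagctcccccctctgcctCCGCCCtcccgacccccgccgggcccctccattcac
Kcnc1: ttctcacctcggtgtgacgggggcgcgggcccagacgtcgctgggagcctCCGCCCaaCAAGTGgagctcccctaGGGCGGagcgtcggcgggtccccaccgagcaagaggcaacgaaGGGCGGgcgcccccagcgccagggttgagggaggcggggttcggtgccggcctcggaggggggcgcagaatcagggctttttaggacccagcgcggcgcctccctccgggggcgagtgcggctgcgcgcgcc
None of the 4 runs holds TATAAA, which 12.4% of 32851 annotated starts have in this window. The Kcnj8 run has 1 CANNTG (66.2% of starts hold it) and none of the other motifs. The Abcc9 run has 1 GGGCGG (32.7% of starts) and 1 CANNTG, the Kcnj10 run 2 GGGCGG and 2 CCAAT (33.8% of starts), and the Kcnc1 run 3 GGGCGG and 1 CANNTG. GC content was 49.2% for Kcnj8, 66.8% for Abcc9, 62.0% for Kcnj10 and 74.4% for Kcnc1, against a median of 52.4% over all starts. A match is a letter pattern and not a bound site. The starts table held 53 of the 72 members.

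Kcnj8, the pore subunit of vascular ATP-sensitive potassium channels, had the largest ratio to the other gated cells among the members chosen for brain classes. Its 752 UMIs in 156 brain pericyte-like cells gave 1783 CPM, against 8.67 CPM in endothelial-like, 3.65 CPM in OPC-like (oligodendrocyte progenitor) and 2.22 CPM in astroglial-like cells. Early and late neuroblast-like cells had 3 UMIs each. No UMI was counted in the fibroblast-, microglia-, ependymal-, mature oligodendrocyte-, activated progenitor- or cycling neuroblast-like class. Against all other gated brain cells Kcnj8 was 1168-fold higher (791 to 1799). A Kcnj8 UMI was found in 90.4% of brain pericyte-like cells (median 2556 UMIs per cell) and 0.306% of neuroblast-like cells (median 4508 UMIs). With each cell thinned to 2000 UMIs, which left out 33 of the 156 pericyte-like cells, the share was 91.9%.

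The 1829 ungated lung cells, where inward rectifiers summed to 74.8 CPM, are left out of the lung class values. Among the gated lung classes, Kcnj8 was spread over several. It stood at 89.9 CPM in 2433 pericyte-like cells, 97.3 CPM in the cells of the myofibroblast list, 50.6 CPM in matrix fibroblast-like and 37.4 CPM in smooth muscle-like cells, and had 9 UMIs in 585 endothelial-like cells. The pericyte-like level was 2.24-fold (1.98 to 2.56) that of the other gated lung cells. This ratio followed the gate. It was 4.24 with at least 4 markers and a lead of 3, and 1.32 with clusters in place of the gate. A Kcnj8 UMI was found in 19.4% of pericyte-like and 1.20% of endothelial-like cells of lung (median 5239 and 5381 UMIs), and in 10.0% of the pericyte-like cells after thinning. Kcnj8 was 19.8-fold higher (18.1 to 21.8) in brain than in lung pericyte-like cells.

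Abcc9, which encodes the sulfonylurea receptor that joins Kcnj8 in the vascular channel, had its highest level of each library in pericyte-like cells. It reached 1224 CPM in brain pericyte-like and 71.1 CPM in lung pericyte-like cells, a 17.2-fold difference (15.4 to 19.2). Both genes had a UMI in 132 of the 156 brain pericyte-like cells (84.6%) and in 178 of the 2433 lung pericyte-like cells (7.32%). Abcc8, the pancreatic and neuronal counterpart, had 0 UMIs in brain and 2 UMIs in lung pericyte-like cells.

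**Figure D2:**
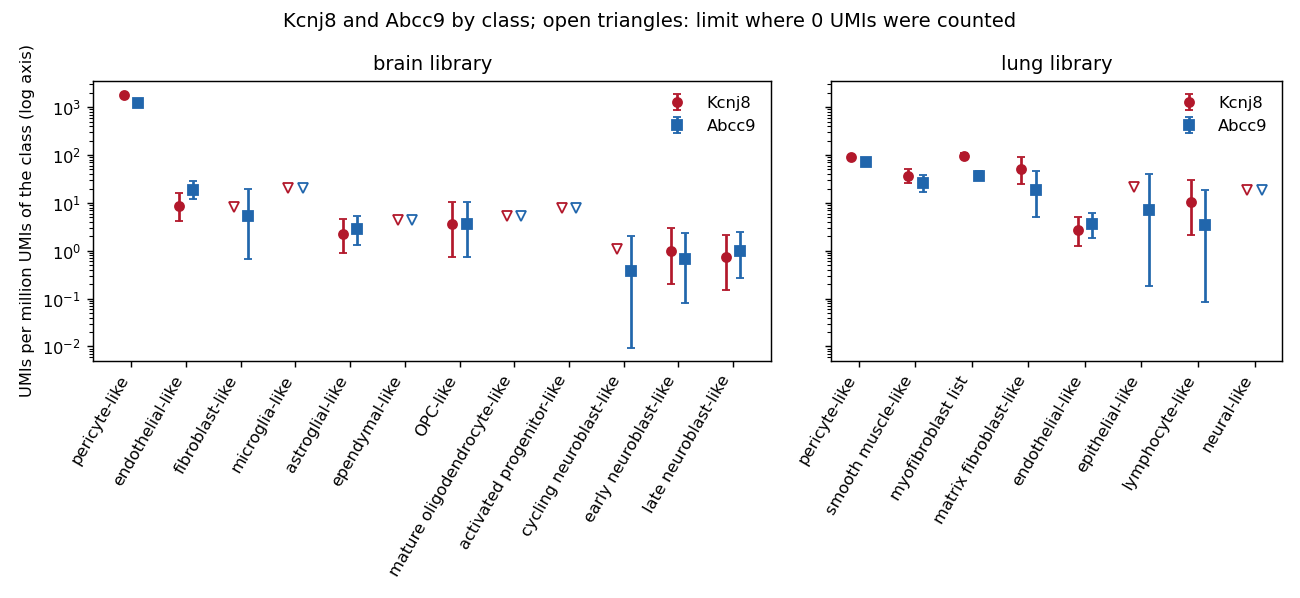
Kcnj8 (circles) and Abcc9 (squares) in CPM (log axis) in each class, with exact Poisson 95% intervals, and an open triangle at the level of 3 UMIs where none was counted. Brain pericyte-like cells stand apart for both genes (1783 and 1224 CPM), and the highest lung values are 97.3 CPM for Kcnj8 and 71.1 CPM for Abcc9.

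The brain pericyte-like class had 3 further members at its highest level among brain classes. Kcnj12, a strong inward rectifier, stood at 111 CPM, and 21.2 CPM in mature oligodendrocyte-like cells was the next level. Kcne4, a Kv accessory subunit, stood at 47.4 CPM and Kcnk3, an acid-sensitive two-pore channel, at 45.1 CPM. Kcnmb1, the BK accessory subunit of smooth muscle, was at 40.3 CPM there and at 67.1 CPM in ependymal-like cells. Kcnmb1 lies within Kcnip1 on the opposite strand, and the strand setting of the counting is not given in the sources used here.

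Counts of genes at a CPM ratio of 2 or more were taken among genes with at least 20 UMIs in the pair of classes, with a class at 0 UMIs set to 3 UMIs. Ratios called floored use this setting and are not lower bounds. Since the minimum is on the sum, a gene low in 1 class passes only through the class where it is high, and these counts describe the members that passed without supporting a direction. In brain, 3 of 4 members tested were higher by that rule in pericyte-like than in endothelial-like cells, against 14.3% of all genes, and 1 of 4 was higher in endothelial-like cells, against 19.8%. The former were Kcnj8 (206-fold, 111 to 431), Kcnj12 (42.9-fold, floored) and Kcne4 (18.2-fold, floored). The latter was Kcnj2, an inward rectifier of endothelium, at 19.1 CPM with no UMI in pericyte-like cells (2.68-fold, floored). Kcnj12, Kcne4 and Kcnj2 passed only through the class where they were high, and a minimum of 50 UMIs left 1 and 0 called.

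In lung, 15 of 28 members tested were higher in pericyte-like than in endothelial-like cells, against 18.9% of all genes, and 8 of 28 were higher in endothelial-like cells, against 13.9%. Kcnk3 was at 461 CPM against 4.50 CPM (102-fold, 62.1 to 183). Kcnq5, a slowly activating Kv subunit, had 1440 UMIs (114 CPM) in pericyte-like cells and none in endothelial-like cells (127-fold, floored). Kcnk2, a mechanically gated two-pore channel, was at 30.1 CPM against 0.300 CPM (100-fold, 17.9 to 3967, with 1 endothelial UMI). Kcnip3, a calcium-binding Kv accessory subunit, was at 11.7 CPM against 0.300 CPM, which rests on 1 endothelial UMI.

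The lung endothelial-like side held another set of genes. Kcne3, an accessory subunit of Kcnq1, was at 50.4 CPM against 0.159 CPM (318-fold, 86.6 to 2646), and Kcnq1 itself was at 28.8 CPM against 1.35 CPM (21.4-fold, 12.7 to 38.2). Kcnn4, the intermediate-conductance calcium-activated channel, was at 43.2 CPM with 1 UMI in pericyte-like cells (545-fold, 96.2 to 21664). Kcnj2 was at 22.2 CPM against 0.317 CPM. The delayed rectifier Kcnc2 was at 7.20 CPM, with 1 UMI in pericyte-like cells.

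Brain and lung pericyte-like cells, which held 421684 and 12610998 UMIs, were then set side by side. Of 20 members tested, 5 were higher in brain, against 16.1% of all genes, and 5 were higher in lung, against 13.8%, with nothing read from the counts since several of these passed the minimum through 1 class. Kcnj12 (70.3-fold, 40.8 to 125) and Kcnj8 were followed by Kcne4 (4.30-fold, 2.55 to 6.90) and Kcnmb1 (3.34-fold, 1.90 to 5.53) on the brain side, and Kcnt2 rested on 2 brain UMIs. On the lung side, Kcnq5 had no UMI in brain (16.1-fold, floored), Kcnk3 was 10.2-fold higher (6.55 to 17.0) and Kcnk2 12.7-fold (2.26 to 502, with 1 brain UMI). Kcnn2 had 1 brain UMI and an interval that included 1. A member at 7.11 CPM in brain pericyte-like cells has 3 UMIs.

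**Figure D3:**
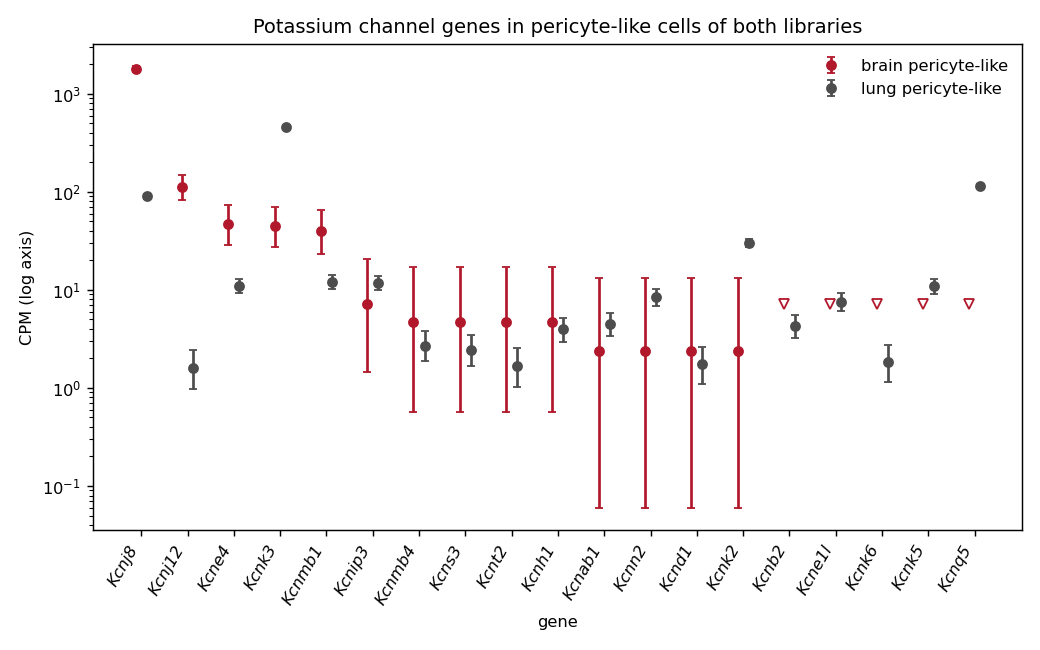
CPM (log axis) of 19 of the 20 members with at least 20 UMIs over brain and lung pericyte-like cells, with exact Poisson 95% intervals and an open triangle at 3 UMIs where none was counted. Kcnj8 and Kcnj12 stand above lung in brain, and Kcnk3, Kcnk2 and Kcnq5 above brain in lung.

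Endothelial-like cells of brain held 1153535 UMIs and those of lung 3333531 UMIs, so that members low in brain passed the minimum through lung, and the count is a description only. Of 7 members tested, 0 were higher in brain, against 11.0% of all genes, and 6 were higher in lung, against 14.3%, with no test and no p-value from any tool. Kcnn4 (49.8-fold, 8.80 to 1982) and Kcne3 (29.1-fold, 7.92 to 242) rested on 1 or 2 brain UMIs. Kcnk6, a weakly rectifying two-pore channel, was 4.57-fold higher in lung (1.86 to 14.5) and Kcnq1 2.56-fold (1.43 to 4.97), and Kcnc2 had no brain UMI. Kcnj2 was at 19.1 CPM in brain and 22.2 CPM in lung, a ratio of 0.859 (0.508 to 1.40).

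In the smaller lung classes many cells lay near the cut of the gate, 60.5% of the myofibroblast list, 58.9% of the smooth muscle-like and 61.1% of the epithelial-like cells. Kcns3, a silent Kv subunit, and Kcnb2, a delayed rectifier, were at 55.1 and 72.1 CPM in the cells of the myofibroblast list, 15.5-fold (11.4 to 21.2) and 15.2-fold (11.6 to 19.9) the other gated lung cells. More UMIs of both lay in the 1829 ungated lung cells, 365 of the 568 kept for Kcns3 (31.5 CPM) and 378 of the 645 kept for Kcnb2 (32.6 CPM), and 666 of these cells tied between the myofibroblast and smooth muscle lists. Smooth muscle-like cells had the highest lung levels of Kcnab1 (27.5 CPM), a Kv beta subunit, and Kcnmb1 (23.1 CPM), and of Kcna5 (16.5 CPM), a Kv channel of arterial muscle. Kcnk3 stood at 201 CPM in smooth muscle-like cells and at 208 CPM in the cells of the myofibroblast list. Kcnn4, a channel that sustains calcium entry in T cells, was at 102 CPM in the 101 lymphocyte-like cells. The inward rectifier Kcnj15 was at 182 CPM in the 18 epithelial-like cells.

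Kcnj10, the main inward rectifier of glia, was found in the macroglial classes of the brain. It stood at 201 CPM in ependymal-like, 194 CPM in astroglial-like, 173 CPM in mature oligodendrocyte-like and 105 CPM in OPC-like cells. The intervals of the first 3 overlapped (169 to 238, 179 to 210 and 141 to 211 CPM), and that of OPC-like cells (83.7 to 129 CPM) lay below them. Activated progenitor-like cells were at 37.1 CPM, neuroblast-like at 4.40 CPM, endothelial-like at 4.33 CPM and pericyte-like at 2.37 CPM. The 4 macroglial classes together were 34.1-fold (26.5 to 44.7) above the other gated brain cells. A Kcnj10 UMI was found in 44.1% of astroglial-like and 2.09% of neuroblast-like cells, and in 29.6% and 0.985% after thinning. In lung, Kcnj10 had 3 UMIs in all, 2 of them in neural-like cells.

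Kcnj16, which forms a channel with Kcnj10, was absent or near absent from one of these classes. It was at 68.8 CPM in astroglial-like, 48.7 CPM in OPC-like and 43.3 CPM in ependymal-like cells, and had 1 UMI (1.77 CPM) in mature oligodendrocyte-like cells. The OPC-like level was 27.5-fold that of mature oligodendrocyte-like cells (4.66 to 1114), whereas Kcnj10 was lower in OPC-like cells (0.604, 0.447 to 0.815).

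Astroglial-like and neuroblast-like cells each had members above the other. Of 44 members tested, 18 were higher in the 1961 neuroblast-like cells, against 26.4% of all genes, and 20 were higher in the 801 astroglial-like cells, against 24.2%. The median ratio of neuroblast-like over astroglial-like was 0.819 over members and 1.16 over all genes tested. Summed inward rectifiers were 19.5-fold (16.2 to 23.5) higher in astroglial-like cells, two-pore channels 1.83-fold (1.69 to 1.98), Kcnma, Kcnn, Kcnt and Kcnu channels 2.33-fold (2.11 to 2.57) and Kv accessory subunits 2.99-fold (2.67 to 3.35). In neuroblast-like cells, summed BK accessory subunits were 7.34-fold (3.48 to 18.5) higher, at 16.3 against 2.22 CPM and with 7 UMIs in astroglial-like cells, and Kv pore subunits 1.34-fold (1.23 to 1.47) higher, at 270 against 201 CPM. Single Kv pore genes went both ways under this sum, with Kcnc1 and Kcnd3 higher in neuroblast-like and Kcng4, Kcnc4 and Kcna2 higher in astroglial-like cells. The Kv regulator stood at 2.56 against 0.950 CPM, with an interval of the ratio (0.822 to 13.9) that included 1.

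The astroglial-like side was led by Kcng4, a silent Kv subunit (83.6-fold, with 1 neuroblast UMI), Kcnj16 (74.6-fold, 38.6 to 165), Kcnc4, a fast Kv subunit (57.3-fold, 14.8 to 490), Kcnj10 (44.1-fold, 32.3 to 61.5) and Kcna2, an axonal Kv subunit (39.2-fold, 12.4 to 199). The two-pore channel Kcnk1 (58.0 CPM) and the small-conductance calcium-activated Kcnn2 (178 CPM) were also on that side. The two-pore channel Kcnk2 was at 217 CPM in astroglial-like cells, short of the 2-fold rule. Kcnk2 was spread over further classes, with 237 CPM in ependymal-like, 199 CPM in fibroblast-like, 128 CPM in OPC-like and 115 CPM in neuroblast-like cells. It had 1 UMI in brain pericyte-like cells and 3 in endothelial-like cells.

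On the neuroblast-like side, Kcnt2, a sodium-activated channel, was 17.8-fold higher (3.06 to 714, with 1 astroglial UMI). Kcnh8 and Kcnb2 had 158 and 110 UMIs and none in astroglial-like cells (17.0-fold and 11.8-fold, floored), and Kcnmb2, a BK accessory subunit, was at 4.61 CPM with 1 astroglial UMI. Kcnc1, a fast delayed rectifier, was at 85.7 CPM against 23.8 CPM, and Kcnd3, a transient Kv subunit, at 45.0 against 10.8 CPM.

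**Figure D4:**
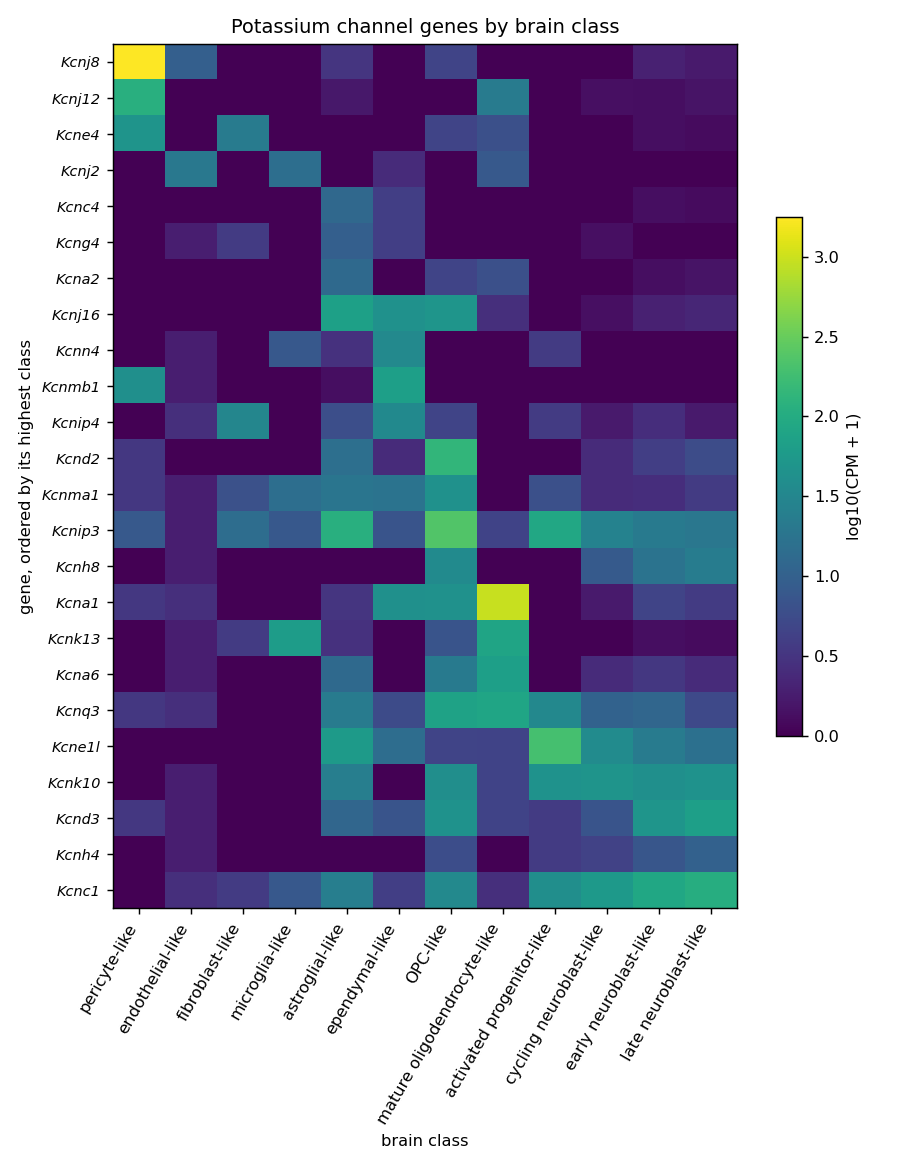
Level, as log10(CPM + 1), of members named for the brain classes (rows, ordered by highest class) in the 12 brain classes (columns). Kcnj8 in pericyte-like (1783 CPM) and Kcna1 in mature oligodendrocyte-like cells (952 CPM) are the brightest cells, and Kcnc1 and Kcnk10 run through the cycling, early and late neuroblast-like classes.

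Neuroblast-like cells were split by cell cycle and maturation markers into 341 cycling, 714 early and 906 late cells. Early cells were led by Neurod2, Neurod6, Tbr1 and Eomes, transcription factors of the glutamatergic lineage, whereas neuroblast-like cells as a whole were led by Htr3a, Dlx5 and Gad2 of the GABAergic lineage. The maturation list itself held Gad1, Gad2 and Calb2, so the split into early and late cannot tell maturation from lineage. Of 30 members tested, 11 were higher in late than in cycling cells, against 9.02% of all genes, and 2 were higher in cycling cells, against 8.66%. Kcnd3 was at 5.92 CPM in cycling, 49.3 CPM in early and 67.9 CPM in late cells (late over cycling 11.5-fold, 6.94 to 20.4). Kcnip1, an accessory subunit of the Kcnd family, was at 1.48, 5.33 and 9.59 CPM (6.48-fold, 2.34 to 25.0). Kcnk1 had no UMI in cycling cells (5.54-fold, floored) and was at 11.7 CPM in early and 6.15 CPM in late cells. Kcnu1, best known from sperm, was at 5.41 CPM in late cells with 3 UMIs in cycling cells (4.88-fold, 1.47 to 25.5).

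Kcnc1 and Kcnk10, a stretch-activated two-pore channel, were present in cycling, early and late cells. Kcnc1 was at 54.7 CPM in cycling, 85.3 CPM in early and 107 CPM in late cells, and Kcnk10 at 47.3, 40.3 and 45.0 CPM. Cycling cells were above late cells in Kcne1l, the older symbol of Kcne5 (2.37-fold, 1.70 to 3.32), and Kcnq3 (2.30-fold, 1.20 to 4.52). Kcne1l was highest in the 43 activated progenitor-like cells, at 196 CPM, 8.04-fold (6.19 to 10.3) the other gated brain cells. Of these 43 cells, 46.5% lay near the cut of the gate. The class held 74 of the 660 kept brain UMIs of Kcne1l, and ungated brain cells held 170. Kv pore subunits summed to 166 CPM in cycling, 275 CPM in early and 335 CPM in late cells. Cycling cells had a median of 8212 UMIs against 4293 UMIs in late cells, and the part of depth in these ratios was not tested.

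**Figure D5:**
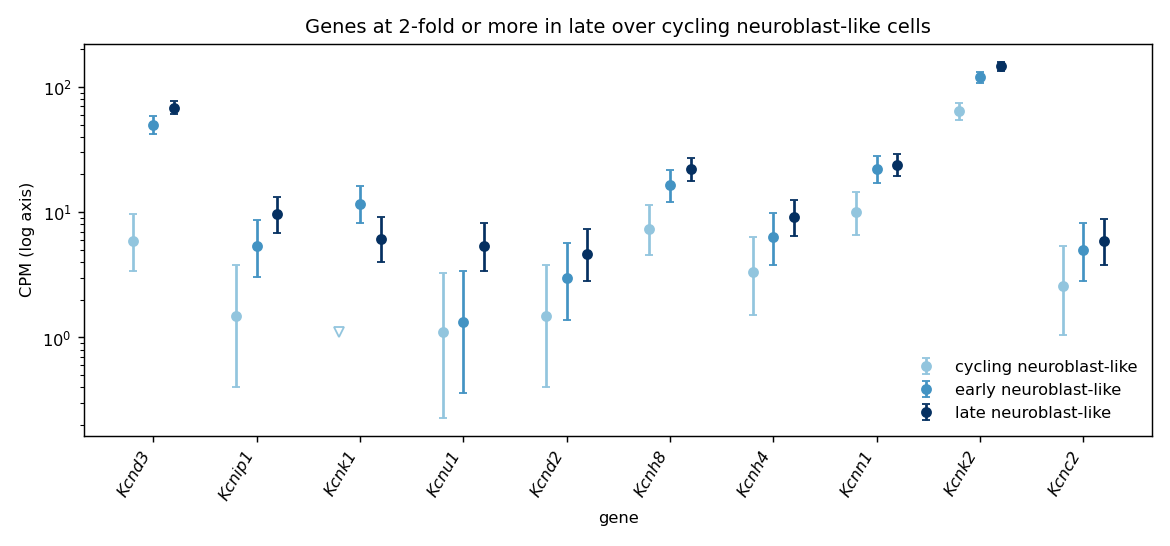
CPM (log axis) in cycling, early and late neuroblast-like cells of 10 of the 11 members at a ratio of 2 or more in late over cycling cells, with exact Poisson 95% intervals and an open triangle at 3 UMIs where none was counted. Kcnd3 goes from 5.92 to 67.9 CPM, and Kcnk1 is highest in early cells.

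Among the 58 members with at least 20 UMIs in gated brain cells, 13 had their highest level in OPC-like cells, against 10.5% of all genes, and 11 in ependymal-like cells, against 13.3%. Astroglial-like cells held 6, against 6.92% of all genes, and late neuroblast-like cells 6, against 7.74%. Kcnd2, a transient Kv subunit, was at 135 CPM in OPC-like cells, 28.4-fold (21.1 to 38.4) the other gated brain cells, and Kcnip3, which binds Kcnd subunits, at 236 CPM (6.43-fold, 5.44 to 7.56). Dpp6, another partner of the Kcnd channels, was at 200 CPM in OPC-like cells. Kcnma1, the BK pore, was at 42.6 CPM there (7.54-fold, 4.96 to 11.2) and Kcnh8 at 35.3 CPM (3.69-fold, 2.39 to 5.51).

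OPC-like and mature oligodendrocyte-like cells were compared next, with 89 brain cells tied between these lists left ungated. Near the cut of the gate lay 26.4% of the OPC-like and 34.8% of the mature oligodendrocyte-like cells. Of 18 members tested, 12 were higher in the 159 OPC-like than in the 92 mature oligodendrocyte-like cells, against 33.6% of all genes, and 3 were higher in mature cells, against 9.21%. Kcnip3 (66.7-fold, 18.2 to 555) and Kcnd2 (25.5-fold, floored, no mature UMI) were on the OPC side with Kcnj16 and Kcnc1 (18.6-fold, 3.06 to 760). On the mature side were Kcna1, a Kv subunit best known from axons beside the nodes of Ranvier (22.3-fold, 15.9 to 32.4), Kcnk13, a two-pore channel (12.8-fold, 5.09 to 41.3), and Kcna6 (3.25-fold, 1.79 to 6.14). Kcnq3 did not separate the classes, with a ratio of 0.932 (0.624 to 1.40).

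Kcna1 was at 952 CPM in mature oligodendrocyte-like cells, 166-fold (133 to 208) the other gated brain cells, and was found in 64.1% of them and 1.12% of neuroblast-like cells. Kept barcodes held 707 of its 1749 brain UMIs (40.4%), against 77.9% over all members. Without the filter on barcodes the class had 150 cells and Kcna1 stood at 697 CPM. The 29 neural-like cells of lung, whose leading genes included Sox10 and Foxd3, had 110 Kcna1 UMIs (696 CPM) in 86.2% of cells, 4650-fold (1550 to 22894) the other gated lung cells. Kcna6 was at 228 CPM in these cells and 67.3 CPM in mature oligodendrocyte-like cells, with 147-fold (88.6 to 246) the other gated lung cells. Cntn2, an adhesion protein that clusters Kcna channels, was at 319 CPM in mature oligodendrocyte-like cells and had no UMI in lung neural-like cells.

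Ependymal-like cells had Kcnmb1 at 67.1 CPM (59.3-fold, 34.0 to 107, above other gated brain cells), Kcnn4 at 32.8 CPM (61.2-fold, 27.1 to 151) and Kcnip4, a Kv accessory subunit, at 34.3 CPM (13.4-fold, 7.70 to 22.7). In the 36 microglia-like cells, the two-pore channels Kcnk12 (16 UMIs, 111 CPM), Kcnk6 (12 UMIs, 83.2 CPM) and Kcnk13 (9 UMIs, 62.4 CPM) made up most member UMIs. Brain fibroblast-like cells had Kcnk2 at 199 CPM, Kcnt1, a sodium-activated channel, at 35.4 CPM and Kcnj13, an inward rectifier, at 32.7 CPM, the latter pair on 13 and 12 UMIs. Kcnj13 and Kcnip4, like Kcnmb1 and Kcnip1, overlap another annotated gene on the opposite strand.

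A list of 26 genes that work with potassium channels was read in the same classes. Of 10 listed genes tested in brain pericyte-like against endothelial-like cells, 6 were higher in pericyte-like cells, against 14.3% of all genes, and 2 in endothelial-like cells, which is near the share of all genes (19.8%). In lung, 6 of 14 were higher in pericyte-like cells (18.9% of all genes) and 5 in endothelial-like cells (13.9%). Atp1b2, a sodium-potassium pump subunit, was at 771 CPM in brain pericyte-like, 913 CPM in astroglial-like and 79.1 CPM in lung pericyte-like cells, and Slc12a2, a sodium-potassium-chloride cotransporter, at 885 CPM in brain and 317 CPM in lung pericyte-like cells. Between neuroblast-like and astroglial-like cells, 4 of 20 listed genes were higher in the former, which is under the share of all genes (26.4%), and 9 in the latter (24.2% of all genes). The former included Dpp10 (1 astroglial UMI), Cntn2 and Lrrc55, a BK accessory subunit (3 astroglial UMIs). Other classes stood above neuroblast-like cells for Dpp10 (46.3 CPM in OPC-like against 5.83 CPM) and Cntn2 (319 CPM in mature oligodendrocyte-like against 16.6 CPM).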

How the data were processed

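Nestin-GFP+ cells of adult mouse brain and lung were profiled with a droplet 3′ kit, 1 library each. The deposited files hold UMI counts per gene and barcode, made by the authors from reads aligned to mm10. The submitters' processing notes name bcl2fastq 2.19.1.403, UMI-tools 1.0.0, STAR 2.7.1a and featureCounts 1.6.4 (Subread). The annotation and the strand setting are not given in the sources used here. The counts were used as deposited, with no normalization beyond division by the class total.

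Barcodes were filtered by the limits in the study's methods (more than 200 and fewer than 4000 genes, under 40% mitochondrial UMIs). The study's figure shows 4640 brain and 5981 lung cells, the same numbers as the deposited barcodes, so the set kept here is smaller. Cells were gated by marker lists (3 markers, lead of 2), and neuroblast-like cells with at least 3 cell cycle markers were called cycling and, of the rest, those with at least 4 maturation markers late. UMIs were summed per class. Doublets were kept in the main values and marked with Scrublet through scanpy 1.11.5 (45 brain and 76 lung cells) as an alternative. Levels have exact Poisson intervals, CPM ratios exact conditional binomial intervals and shares of cells exact Clopper-Pearson intervals, at 95%. They cover counting error only. Cells are not replicates, so no test was made. A ratio against 0 UMIs used a floor of 3 UMIs over the class, and where that floor lay above the other class no direction was called. For shares of cells, cells were also thinned to 2000 UMIs, leaving out shallower cells.

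The genes named are Kcnj8 and Kcnj10, up to 4 members per class with their highest level and at least 20 UMIs there, up to 5 members per direction of each comparison, and those nearest the threshold. Some genes that this rule names are not reported here. Others, such as the microglia-like two-pore channels, Kcnk1, Kcnk2, Kcnn2, Kcna5, Kcnj13 and Kcnt1, were chosen after their values were seen. The members, marker lists and partner list were chosen with earlier results of these data known. Positions came from GENCODE M21 and upstream bases from RefSeq. Python 3.11.15, scipy 1.17.1 and pandas 2.3.3 were used, and the ratio and call code was tested on simulated data. Alternatives were other barcode filters, gates, clusters, doublet removal, folds and minimum UMIs.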

Additional observations from a re-analysis of the deposited data

How the results depend on the processing

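Of 93 values recomputed under an alternative, 83 stayed within their counting interval or, for counts, within 1.5 times. No CPM ratio changed direction, and direction was not scored for counts and levels. The lung Kcnj8 ratio of pericyte-like over other gated cells (2.24) was 2.61 with no filter on barcodes, 4.24 with the strict gate (4 markers, lead of 3), 1.75 with the loose gate (lead of 1) and 1.32 with clusters in place of the gate. The Kcnj10 ratio of macroglial over other gated brain cells (34.1) was 46.2 with the strict gate and 25.5 with clusters. The cause of these shifts was not tested. Of members higher in brain pericyte-like than endothelial-like cells, 1 was left at a minimum of 50 UMIs, which tests fewer genes. For the reverse direction, 0 were left at a minimum of 50 UMIs and 0 at 3-fold. The level of Kcna1 in mature oligodendrocyte-like cells (952 CPM) was 697 CPM with no filter on barcodes, an alternative added after seeing the data, as was leaving out the shared barcodes. The brain Kcnj8 ratio ran from 906 to 1344, the brain over lung ratio from 18.8 to 20.7 and the Kv ratio from 1.27 to 1.39. No paired analysis was possible because there is 1 library per tissue and the results come from no test. The smallest classes limit precision: 1 UMI is 7.27 CPM in lung epithelial-like and 6.93 CPM in microglia-like cells.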
